A study of Homo sapiens with 6 samples.

Results

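The genes described here were the cytosolic and mitochondrial heat shock chaperones and the regulators of their transcription, 38 gene symbols of the 58825 genes in the deposited table. They were chosen by name, with earlier results of these data known. They covered the HSP70, HSP110, HSP40 and HSP90 classes, the mitochondrial HSP60 pair and the small heat shock proteins. The cochaperones STIP1 and BAG3 and the factors HSF1 and HSF2 were also included. The 38 symbols stood in 39 rows, because HSPA14 had 2 Ensembl identifiers. Of these rows 38 entered the test, among 19393 genes tested in all, and 34 had a mean of at least 1 FPKM (fragments per kilobase scaled to library size, the length-corrected unit that the authors deposited). The row left out was HSPB2, at 0 to 0.08 FPKM.

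Heat shock chaperones bind unfolded stretches of other proteins and keep them from clumping. HSP70 proteins take and release their clients in a cycle driven by ATP, HSP40 (J domain) proteins bring the clients and start the ATP step, and HSP110 proteins exchange the nucleotide. HSP90 finishes the folding of kinases and receptors, HSP60 with its lid HSP10 folds proteins inside the mitochondrion, and small heat shock proteins hold unfolded clients without ATP. Some members are made at all times, while others are made mainly after heat or other stress, when the factor HSF1 binds heat shock elements in their promoters. Hepatocellular carcinoma is known for high levels of several of these chaperones.

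RNA came from 1 established cell line of human hepatocellular carcinoma, MHCC97H, in 6 libraries. The 3 libraries named shControl 1, 2 and 3 carried a control short hairpin RNA and the 3 named shPTBP1 1, 2 and 3 a hairpin against PTBP1, an RNA-binding regulator of splicing. All 6 came from the same line, with no stress treatment named in the labels, which give no dose, time or hairpin sequence. The labels do not say whether the libraries of a group were separate cultures, so that p-values measure only the spread between these libraries, which may be technical.

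The library totals ran from 68704509 to 85317970 deposited counts, and the fragments behind them are not known. PTBP1 itself had 175, 133 and 218 CPM (counts scaled to a common library size by the TMM method, not corrected for length) in shControl 1, 2 and 3 and 142, 138 and 150.1 CPM in shPTBP1. Its groups overlapped, and its log2 fold change was -0.29 (standard error 0.18, adjusted p = 0.953 by edgeR), so every direction below is between libraries as labelled. On the log2 scale PTBP1 differed by -0.10 without shControl 3, -0.13 in the libraries numbered 1 and 2 alone and -0.45 without shControl 2. The edgeR calls of chaperones given below were made without shControl 3 or in numbers 1 and 2 alone, where the PTBP1 difference was smaller. Of 17 hepatocyte markers, KRT8 and KRT18 were above 1 FPKM in every library and 9, ALB and AFP among them, were at 0 in every library. The libraries numbered 3 stood apart in both groups. The 8 red-cell markers summed to 989, 628, 656 and 594 FPKM in shControl 1 and 2 and shPTBP1 1 and 2, but to 1.09 in shControl 3 and 0.88 in shPTBP1 3. The 8 neutrophil and monocyte markers summed to between 14.3 and 25.6 FPKM in the same 4 libraries and to 0.1 and 0.08 in those numbered 3.

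Promoter sequences were searched for heat shock elements, the sites through which HSF1 is known to act. Windows of 250 bases before to 50 bases after a RefSeq start (GRCh38.p14) were held for 33 of the 38 symbols, and none for HSPB2, HSPA14, HSF1, HSPB11 and CRYAB. A 3-unit element was searched on both strands as GAANNTTCNNGAA or TTCNNGAANNTTC, and a 2-unit element as GAANNTTC or TTCNNGAA, so that every 3-unit match also holds a 2-unit match. The 3-unit element was found in 7 of the 33 genes, which is 21.2%, against 0.608% of 27305 genes with a promoter in the same table. These 7 were DNAJA1, DNAJB6, HSP90AA1, HSP90AB1, HSPA6, HSPA8 and HSPD1. The 2-unit element was found in 19 of the 33, which is 57.6%, against 16.2% of all genes. HSPB7, BAG3, HSPH1 and DNAJB5 held neither in their windows. The search took exact units only, so elements with a changed base or outside the windows would be missed.

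The windows below are shown for members whose levels are described later, with the element in capitals and 20 bases on either side, 5′ to 3′ on the strand of the gene. HSPA6 (chr1:161524446-161524498, plus strand), HSP90AB1 (chr6:44247758-44247810 and chr6:44247811-44247863, plus strand) and DNAJB6 (chr7:157336853-157336905, plus strand) held the 3-unit form. HSPA1A (chr6:31815417-31815464, plus strand), HSPA1B (chr6:31827613-31827660, plus strand) and DNAJB1 (chr19:14518417-14518494, minus strand) held the 2-unit form.
HSPA6: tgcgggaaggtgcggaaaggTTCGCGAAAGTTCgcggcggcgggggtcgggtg
HSP90AB1, distal: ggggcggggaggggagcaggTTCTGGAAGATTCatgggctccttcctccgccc
HSP90AB1, proximal: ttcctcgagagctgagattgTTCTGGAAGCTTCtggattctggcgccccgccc
DNAJB6: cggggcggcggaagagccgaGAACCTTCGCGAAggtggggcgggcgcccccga
HSPA1A: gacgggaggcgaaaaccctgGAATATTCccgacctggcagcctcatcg
HSPA1B: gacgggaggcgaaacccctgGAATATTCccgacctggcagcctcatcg
DNAJB1: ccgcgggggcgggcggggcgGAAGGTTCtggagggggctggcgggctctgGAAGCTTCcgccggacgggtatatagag

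The HSPA6 match began 74 bases before the start and that of DNAJB6 131 bases before its own. Those of HSP90AB1 began 165 and 112 bases before the start shown. HSPA1A and HSPA1B carried the same element 106 and 105 bases before their starts. DNAJB1 carried 2 elements, the first of them 77 bases before the start shown. HSP90AB1 and DNAJB1 had other starts in the same promoter set. The other starts of HSP90AB1 held neither element. For DNAJB1, another start held a 2-unit element (chr19:14517909-14517956) and a further start held none. A match is a stretch of letters and says nothing of binding in these cells.

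The chaperones were among the abundant transcripts of the line. The 39 rows together took 1.88%, 1.94% and 1.13% of all FPKM in the 3 shControl libraries, against 1.51%, 1.57% and 1.32% in the 3 shPTBP1 libraries. The constitutive cytosolic HSP90, HSP90AB1, had the highest mean over the 6 libraries, 1388 FPKM. It was followed by the stress-inducible HSP70 pair HSPA1A (455 FPKM) and HSPA1B (408 FPKM), inducible HSP90AA1 (354 FPKM), mitochondrial HSPD1 (340 FPKM) and constitutive HSPA8 (332 FPKM). HSPA1A, HSPA1B, HSP90AA1, HSPD1 and HSPA8 overlapped in their FPKM over libraries, and HSP90AB1 lay above all of them in every library. The main HSP40 proteins, DNAJA1 and DNAJB1, stood at 211 and 120 FPKM and the leading small heat shock protein, HSPB1 (HSP27), at 132 FPKM. At the low end were the small heat shock proteins HSPB3 (0.865 FPKM), CRYAB (0.483 FPKM) and HSPB6 (0.122 FPKM) and the HSP70 gene HSPA2 (0.663 FPKM). Since these are bulk samples, fewer cells of a kind and less RNA per cell cannot be told apart.

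**Figure D1:**
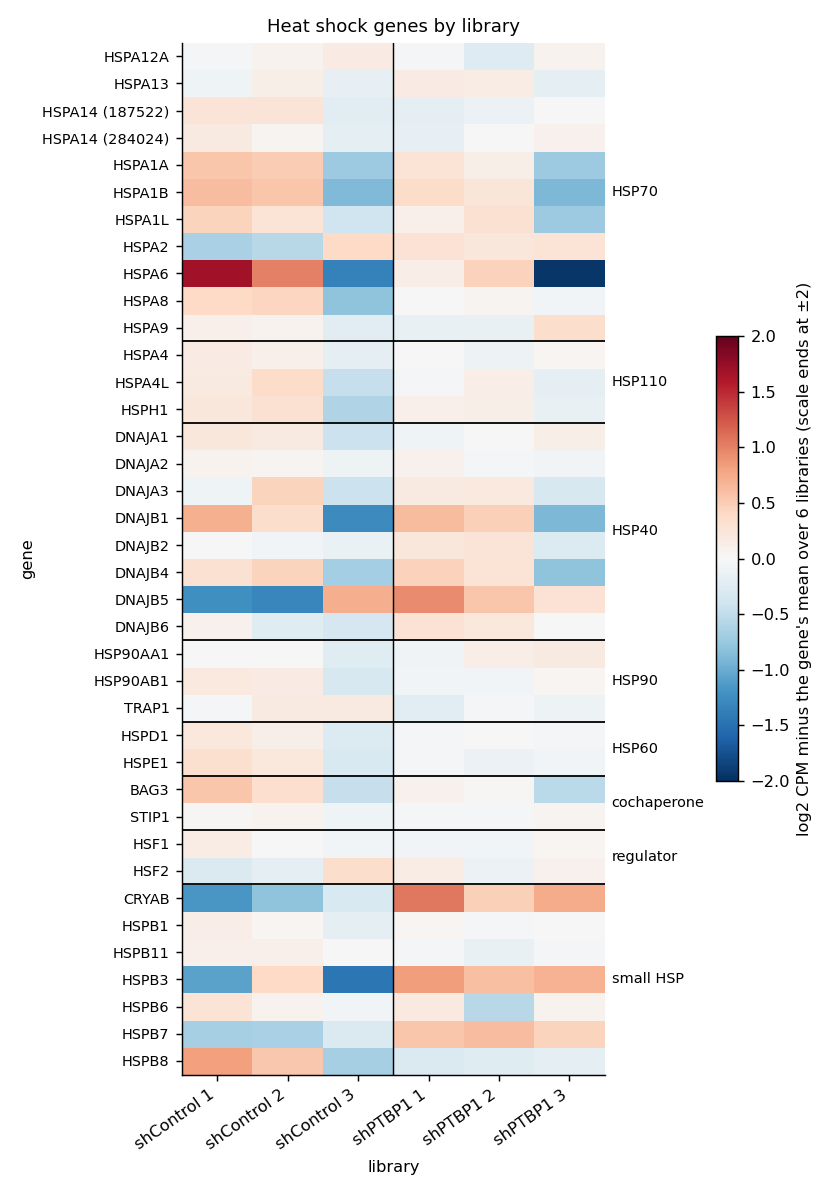
Heat map of the tested members, 1 row per table row, grouped by class, with the 6 libraries as columns; colour is log2 CPM minus the mean of that row over libraries. The rows of HSPA6, HSPA1B, DNAJB1 and DNAJB4 are low in both columns numbered 3, and HSPB7 and CRYAB are high in the 3 shPTBP1 columns.

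The first question of the design was whether the chaperones differed between shPTBP1 and shControl. No member passed an adjusted p of 0.05 in edgeR's quasi-likelihood test (0 of 38 rows), against 0.0309% of all genes tested, which was 6 genes. At an unadjusted p under 0.05 there were 2 of 38 rows, HSPB7 and CRYAB, both higher in shPTBP1, against 5.69% of all genes in either direction and 3.58% in the higher direction. DESeq2 called the same 2 genes at an adjusted p under 0.05, where it called 0.715% of all genes with an adjusted p. The median log2 fold change of the members was -0.04, against -0.01 over all genes tested, and 24 of 38 rows were below 0, against 52.0% of all genes.

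HSPB7, a small heat shock protein known from heart and skeletal muscle, was the member with the clearest difference. It lies on the minus strand at chr1:16014028-16019594 (hg38). Its levels were 31.2, 31.7 and 40.5 CPM in the shControl libraries against 72.7, 75.8 and 67.1 CPM in the shPTBP1 libraries. Every shPTBP1 library lay above every shControl library, with means of 71.9 ± 4.41 and 34.5 ± 5.24 CPM (SD, n = 3 each). The log2 fold change was 1.06 (standard error 0.14), a 2.09-fold ratio of the means. It ranked 15 of 19393 genes by p and missed the threshold after adjustment by edgeR (unadjusted p = 0.000102, adjusted p = 0.132), while DESeq2 gave an adjusted p of 3.2e-06. Without shControl 3, where 0.674% of all genes passed after adjustment, it did so too in edgeR (log2 fold change 1.19, adjusted p = 0.0220), as it did in the libraries numbered 1 and 2 alone (1.24, adjusted p = 0.0478).

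CRYAB (alpha-B crystallin, a chaperone of lens and muscle) had the largest fold but a low level. It lies on the minus strand at chr11:111908619-111913897. Its values were 0.966, 1.25 and 1.75 CPM in the shControl libraries against 4.56, 3.02 and 3.67 CPM in the shPTBP1 libraries, again with no overlap. On the log2 scale it was higher by 1.50 with a standard error of 0.31 (edgeR, unadjusted p = 0.00175, adjusted p = 0.364), and the adjusted p was 0.00463 by DESeq2. HSPB2, whose start lies 1163 bases from that of CRYAB on the other strand, shares 1164 bases with it and stayed at or below 0.08 FPKM.

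HSPB3, a small heat shock protein of muscle, was likewise at a low level and without overlap. It had 0.278, 0.786 and 0.212 CPM in the shControl libraries against 1.07, 0.914 and 0.972 CPM in the shPTBP1 libraries (log2 fold change 1.20, standard error 0.54, adjusted p = 0.895 by edgeR). CRYAB, HSPB3 and HSPB7 were the 3 of 38 rows in which the shPTBP1 libraries all exceeded the shControl libraries, against 6.49% of all genes. The rows with every shPTBP1 library below were HSPB11 and TRAP1, 2 of 38, against 5.46% of all genes.

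The more abundant small heat shock proteins showed other patterns. HSPB8, the partner of BAG3 in selective autophagy of misfolded proteins, had 275, 227 and 98.1 CPM in the shControl libraries against 127, 131 and 138 CPM in the shPTBP1 libraries. shControl 1 and 2 were high and shControl 3 was the lowest of all 6, below the tight shPTBP1 group. The log2 fold change of HSPB8 was -0.60 (standard error 0.34, adjusted p = 0.953 by edgeR), and without shControl 3 it was -0.93 (adjusted p = 0.0373), but without shControl 1 it was -0.30 (adjusted p = 0.9997). An identifier on the opposite strand that shares 1212 bases with HSPB8 was listed at 0 in shControl and at 0.73, 1.62 and 1.49 FPKM in shPTBP1. Another shares 545 bases with HSPB8 on the same strand, so that reads could be placed there. It was listed at 5.43, 6.42 and 2.92 FPKM in shControl and at 2.69, 3.94 and 4.55 FPKM in shPTBP1. HSPB1 had 260.2, 244 and 207 CPM in the shControl libraries against 242, 230.2 and 238 CPM in the shPTBP1 libraries, with overlap and a log2 fold change of 0.00. HSPB11, which despite its name is a part of the intraflagellar transport machinery, had 89.0, 88.9 and 83.3 CPM against 80.3, 74.7 and 81.9 CPM. Its groups did not overlap, but the log2 fold change was -0.14 (standard error 0.10, adjusted p = 0.953 by edgeR). HSPB6 was between 0.167 and 0.307 CPM in all libraries.

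**Figure D2:**
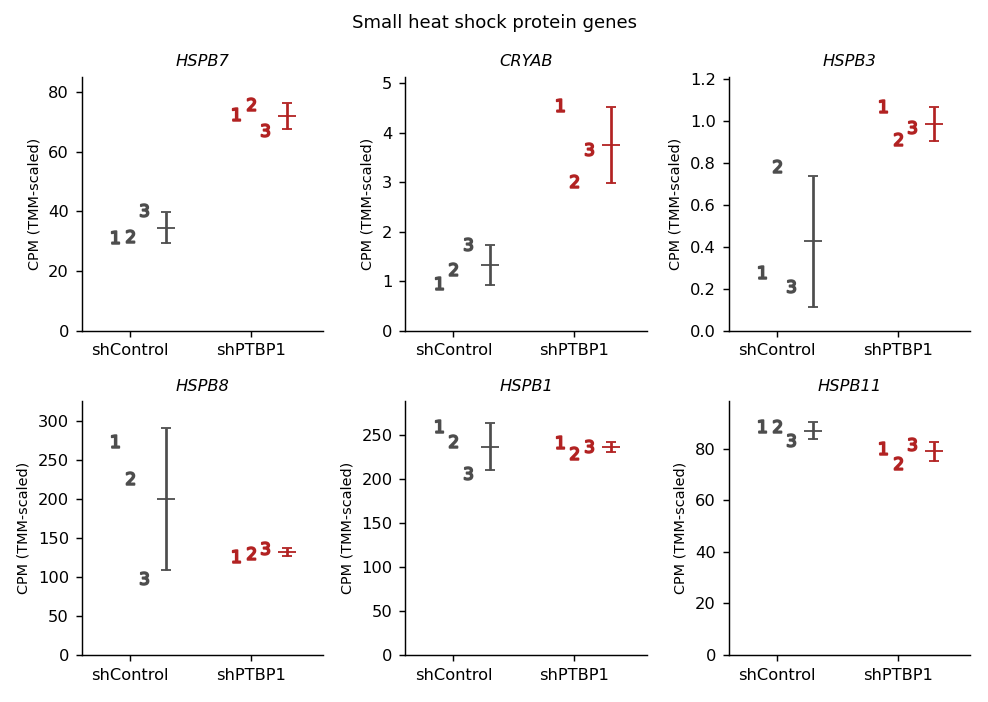
CPM of HSPB7, CRYAB, HSPB3, HSPB8, HSPB1 and HSPB11, 1 panel each with its own axis; points are the libraries labelled by number, bars the mean and SD of 3. HSPB7, CRYAB and HSPB3 lie higher in every shPTBP1 library, while in HSPB8 the spread lies within shControl, from 98.1 to 275 CPM.

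The second pattern lay between library numbers, not between the groups, and was chosen for description after its values were seen. By CPM, both libraries numbered 3 lay below the other 4 in 14 of 38 rows, against 8.65% of all genes tested. In 0 of 38 rows they lay above, against 8.38% of all genes. The 14 were HSPA1A, HSPA1B, HSPA1L, HSPA6, HSPA8 and HSPA13 of the HSP70 class, DNAJA2, DNAJA3, DNAJB1, DNAJB2 and DNAJB4 of the HSP40 class, HSPA4L and HSPH1 of the HSP110 class, and BAG3. The median log2 difference of number 3 from numbers 1 and 2 was -0.21 over the members and 0.02 over all genes. The red-cell and the neutrophil and monocyte sums given above were also low in the libraries numbered 3, and 4 of the 8 red-cell and 7 of the 8 neutrophil and monocyte markers were below the other 4 in both. Their part in the chaperone values was not tested.

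HSPA6, an HSP70 made almost only under stress, varied most. It had 9.89, 6.18 and 1.20 CPM in the shControl libraries against 3.37, 4.22 and 0.791 CPM in the shPTBP1 libraries, a 12.5-fold range. In number 3 it stood at 15.0% of the mean of numbers 1 and 2 in shControl and at 20.9% in shPTBP1. Between the groups its log2 fold change was -1.04 (standard error 0.81, adjusted p = 0.957 by edgeR). The groups overlapped, with shControl 3 below shPTBP1 1 and 2. With number 3 as a covariate the log2 fold change was -0.93 with a standard error of 0.27 (edgeR, unadjusted p = 0.0140, adjusted p = 0.602). With the library number as a block it was -0.91 with a standard error of 0.30 (edgeR, unadjusted p = 0.0294, adjusted p = 0.956). Over all genes tested the numbers did not pair the libraries, by the check given with the methods. That check does not speak for HSPA6 alone, in which number 3 was low in both groups. The standard error without block or covariate includes this shared drop. Without shControl 1 the log2 fold change was -0.40, and without shPTBP1 3 it was -0.60.

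HSPA1A and HSPA1B, neighbouring genes on the plus strand of chromosome 6 (chr6:31815464-31817946 and chr6:31827738-31830254), encode nearly the same protein. Their longest open reading frames in GENCODE 29 transcripts, of 1926 bases each, differed at 4 positions, and 90.9% of the 100-base windows of one were also in the other, so that reads could be placed in either. HSPA1L, HSPA6, HSPA2 and HSPA8 shared no such window with HSPA1A. HSPA1A had 1855, 1784 and 761 CPM in the shControl libraries against 1528, 1369 and 766 CPM in the shPTBP1 libraries. HSPA1B had 1717, 1643 and 609 CPM in the shControl libraries against 1439.7, 1323 and 599.6 CPM in the shPTBP1 libraries. Both were low in the libraries numbered 3, at 41.8% and 36.2% of the mean of the other 2 in shControl and at 52.9% and 43.4% in shPTBP1.

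The sum of the HSPA1 pair does not depend on how reads were split between the 2 genes. A further identifier shares 1421 bases with HSPA1B on the same strand and was listed at 0.2 to 10.16 FPKM. Reads could also be placed there. The sum was 3572, 3427 and 1369 CPM in the shControl libraries against 2968, 2692 and 1365 CPM in the shPTBP1 libraries, so that the 2 libraries numbered 3 were nearly equal. The log2 fold change of the sum was -0.25 (standard error 0.41, adjusted p = 0.982 by edgeR). It ran from -0.58 to 0.02 as single libraries were left out, the last value without shPTBP1 3. With number 3 as a covariate it was -0.21 (standard error 0.11, adjusted p = 0.813 by edgeR). The FPKM of HSPA1B was 0.913, 0.908 and 0.789 times that of HSPA1A in the shControl libraries against 0.930, 0.953 and 0.773 times in the shPTBP1 libraries, lowest in number 3 of each group.

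DNAJB1 (HSP40), the inducible J protein that serves HSPA1A, was also low in both libraries numbered 3. It had 751, 584 and 191 CPM in the shControl libraries against 715, 642 and 246 CPM in the shPTBP1 libraries, with number 3 at 28.6% and 36.2% of the other 2. Its log2 fold change between the groups was 0.07 (standard error 0.55, adjusted p = 0.996 by edgeR). With number 3 as a covariate it was 0.14 (standard error 0.14, adjusted p = 0.9 by edgeR). TECR, which overlaps DNAJB1 on the opposite strand, was at 16.0 FPKM or more in every library, against a mean of 120 FPKM for DNAJB1. DNAJB4, a J protein also known from stress, had 117, 129 and 58.7 CPM in the shControl libraries against 129.8, 114 and 53.8 CPM in the shPTBP1 libraries. DNAJB1, DNAJB4, HSPA1B and HSPA6 were the 4 of 38 rows at or below 50% in number 3 of both groups, against 1.65% of all genes.

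BAG3, the HSP70 cochaperone that leads clients to autophagy, had 118, 101 and 58.0 CPM in the shControl libraries against 85.1, 81.8 and 55.0 CPM in the shPTBP1 libraries. Number 3 was the lowest in each group, and shControl 1 and 2 were the highest (log2 fold change -0.32, standard error 0.28, adjusted p = 0.968 by edgeR). HSPH1 (HSP105), a nucleotide exchange factor, had 405, 429 and 229.5 CPM in the shControl libraries against 374, 376 and 313 CPM in the shPTBP1 libraries. In shPTBP1 the drop of number 3 was smaller for HSPH1, at 83.4% of the other 2, than in shControl, at 55.0%; this difference was not tested.

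**Figure D3:**
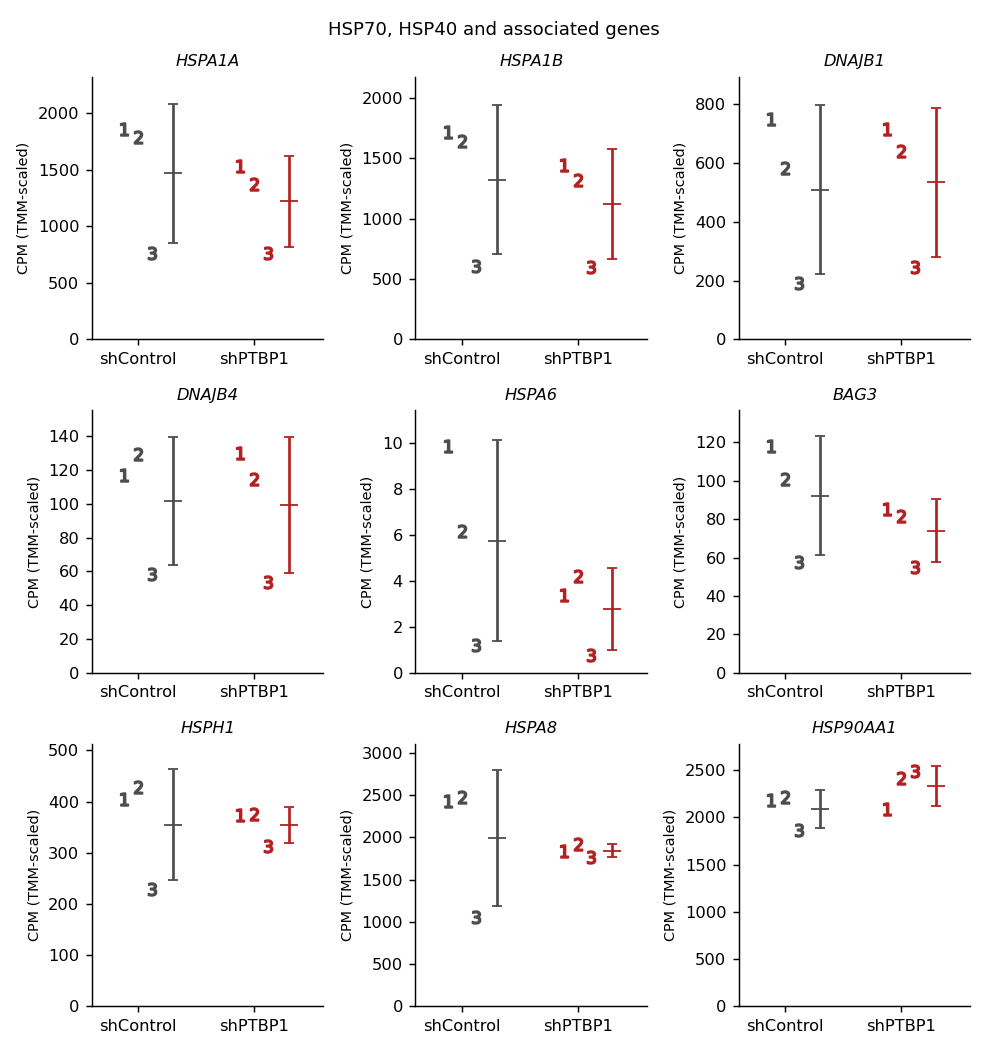
CPM of HSPA1A, HSPA1B, DNAJB1, DNAJB4, HSPA6, BAG3, HSPH1, HSPA8 and HSP90AA1, 1 panel each with its own axis; points are the libraries labelled by number, bars the mean and SD of 3. Number 3 is the lowest of its group for the first 8 genes, and in HSP90AA1 it is the lowest in shControl (1862 CPM) and the highest in shPTBP1 (2489 CPM).

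A further set of values set shControl 3, more than shPTBP1 3, apart from the other libraries. HSPA8 (HSC70), which folds newly made proteins and strips clathrin from vesicles, had 2428, 2482 and 1060 CPM in the shControl libraries against 1839, 1918 and 1772 CPM in the shPTBP1 libraries. Number 3 stood at 43.2% of the other 2 in shControl and at 94.3% in shPTBP1, a difference that was not tested. Its log2 fold change was -0.11 (standard error 0.30, adjusted p = 0.992 by edgeR). In 21 of 38 rows shControl 3 was the lowest of all 6 libraries, against 20.2% of all genes, and in 16 of 38 rows shControl 1 and 2 lay above the other 4, against 14.6% of all genes. In 5 rows (CRYAB, DNAJB5, HSF2, HSPA2 and HSPB7) shControl 1 and 2 lay below the other 4, against 16.4% of all genes.

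Since number 3 stood apart, the groups were also compared in numbers 1 and 2 alone. There 15 of 38 rows had an unadjusted p under 0.05 by edgeR, against 17.7% of all genes in that fit, and 1, HSPB7, passed after adjustment, against 0.319%. Of the 15, 11 were lower in shPTBP1, against 7.46% of all genes, and 4 were higher, against 10.3%. The lower ones included HSPA8 (log2 fold change -0.39, adjusted p = 0.132), HSPA1A (-0.33, adjusted p = 0.192), HSPA1B (-0.28, adjusted p = 0.218), HSPA6 (-1.08, adjusted p = 0.185), BAG3 (-0.39, adjusted p = 0.191) and HSPE1 (-0.34, adjusted p = 0.169). HSPB8 was also lower (-0.96, adjusted p = 0.0733), and DNAJA1, HSP90AB1, HSPA9 and 1 row of HSPA14 made up the rest. None of the 11 passed the adjusted threshold, and each rests on 2 libraries a group. The higher ones were HSPB7, CRYAB (1.77, adjusted p = 0.116), DNAJB5 (2.04, adjusted p = 0.0564) and HSPA2 (0.86, adjusted p = 0.147).

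DNAJB5, a J protein of low level, showed the same dependence on shControl 3. It had 3.50, 3.33 and 13.6 CPM in the shControl libraries against 15.9, 12.1 and 10.1 CPM in the shPTBP1 libraries. shControl 3 lay within the shPTBP1 values and the other 2 far below (log2 fold change 0.90, standard error 0.56, adjusted p = 0.953 by edgeR). Without shControl 3 the log2 fold change was 1.898 (adjusted p = 0.0447), but without shControl 1 it was 0.59 and without shControl 2 it was 0.57 (adjusted p = 0.9997 and 0.9992). HSPA2, an HSP70 best known from the testis, had 2.78, 2.99 and 5.80 CPM in the shControl libraries against 5.37, 5.14 and 5.30 CPM in the shPTBP1 libraries, with shControl 1 and 2 the lowest and shControl 3 the highest.

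None of the other HSP40 rows had an unadjusted p under 0.05 between the groups in the edgeR fit of all 6 libraries. DNAJA1, the main type A partner of HSC70, had 779, 756 and 495 CPM in the shControl libraries against 625, 658 and 718 CPM in the shPTBP1 libraries, with overlap. DNAJB6, a suppressor of polyglutamine aggregation, had 134, 107 and 99.8 CPM in the shControl libraries against 155, 146 and 125 CPM in the shPTBP1 libraries (log2 fold change 0.32, standard error 0.15, unadjusted p = 0.0611, adjusted p = 0.895 by edgeR). The unadjusted p of DNAJB6 was under 0.05 without shControl 1, without shPTBP1 3, with the library number as a block and with number 3 as a covariate. It did not pass after adjustment in any of these fits. DNAJA2, DNAJA3 and DNAJB2 varied between libraries by 1.13-fold, 1.83-fold and 1.45-fold. Over the 8 HSP40 rows the median log2 fold change was 0.04.

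The cytosolic HSP90 genes varied less between libraries than HSPA1A and HSPA1B did. HSP90AB1 had 5628, 5478 and 3931 CPM in the shControl libraries against 4726, 4724 and 5049 CPM in the shPTBP1 libraries (log2 fold change -0.05, standard error 0.14, adjusted p = 0.992 by edgeR). HSP90AA1 had 2188, 2216 and 1862 CPM in the shControl libraries against 2091, 2413 and 2489 CPM in the shPTBP1 libraries (log2 fold change 0.16, standard error 0.11, adjusted p = 0.954 by edgeR). Both groups overlapped in each, and the highest library was 1.43 and 1.34 times the lowest, against 2.44 and 2.86 times for HSPA1A and HSPA1B. STIP1 (HOP), which bridges HSP70 and HSP90, varied by 1.11-fold, from 352 CPM in shControl 3 to 392 CPM in shControl 2.

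TRAP1, the HSP90 of the mitochondrion, was the lower member with the smallest p. It had 230.5, 266 and 267 CPM in the shControl libraries against 203, 230.1 and 218 CPM in the shPTBP1 libraries (log2 fold change -0.23, standard error 0.11, unadjusted p = 0.0665, adjusted p = 0.895 by edgeR). The groups did not overlap in CPM by a narrow margin, and in FPKM they did, with 37.1 in shControl 1 and 37.3 in shPTBP1 2.

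The mitochondrial HSP60 pair lies head to head on chromosome 2, with starts 134 bases apart. HSPD1 (HSP60) had 1925, 1799 and 1371 CPM in the shControl libraries against 1631, 1652 and 1639 CPM in the shPTBP1 libraries, and HSPE1 (HSP10) had 329, 305 and 213 CPM in the shControl libraries against 257, 243 and 253 CPM in the shPTBP1 libraries. In both genes shControl 1 and 2 were the highest, shControl 3 was the lowest and the shPTBP1 libraries lay close together between them. The log2 fold changes were -0.05 (standard error 0.13) and -0.17 (standard error 0.17), neither past the threshold. The readthrough gene HSPE1-MOB4, which shares 2970 bases with HSPE1, was listed at 27.1 FPKM in shPTBP1 3 and at 0 in the other 5. HSPA9 (mortalin), the HSP70 of the mitochondrion, had 764, 748 and 618 CPM in the shControl libraries against 644, 643 and 915 CPM in the shPTBP1 libraries, with shPTBP1 3 the highest of all.

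Among the remaining HSP70 and HSP110 rows, HSPA4 and HSPA4L, nucleotide exchange factors of the HSP110 class, varied between libraries by 1.28-fold and 1.78-fold, and HSPA13 and HSPA12A by 1.27-fold and 1.34-fold. The 2 identifiers of HSPA14, a ribosome-associated HSP70, share 8713 bases on 1 strand, so that their split is uncertain, and varied by 1.38-fold and 1.28-fold. HSPA1L, whose start is 181 bases from that of HSPA1A on the other strand, had 3.33 to 7.5 CPM, a 2.25-fold range.

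The regulators were not among the 14 rows that were low in both libraries numbered 3. HSF1, the main heat shock factor, had 56.9, 51.0 and 49.5 CPM in the shControl libraries against 49.4, 49.3 and 52.6 CPM in the shPTBP1 libraries, with number 3 at 91.9% and 107% of the other 2. HSF2, a related factor, had 19.4, 21.1 and 30.5 CPM in the shControl libraries against 26.4, 22.0 and 25.4 CPM in the shPTBP1 libraries, with the highest value in shControl 3. HSF1 is held inactive by chaperones and switched on after translation, so that its mRNA level is no measure of its activity.

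**Figure D4:**
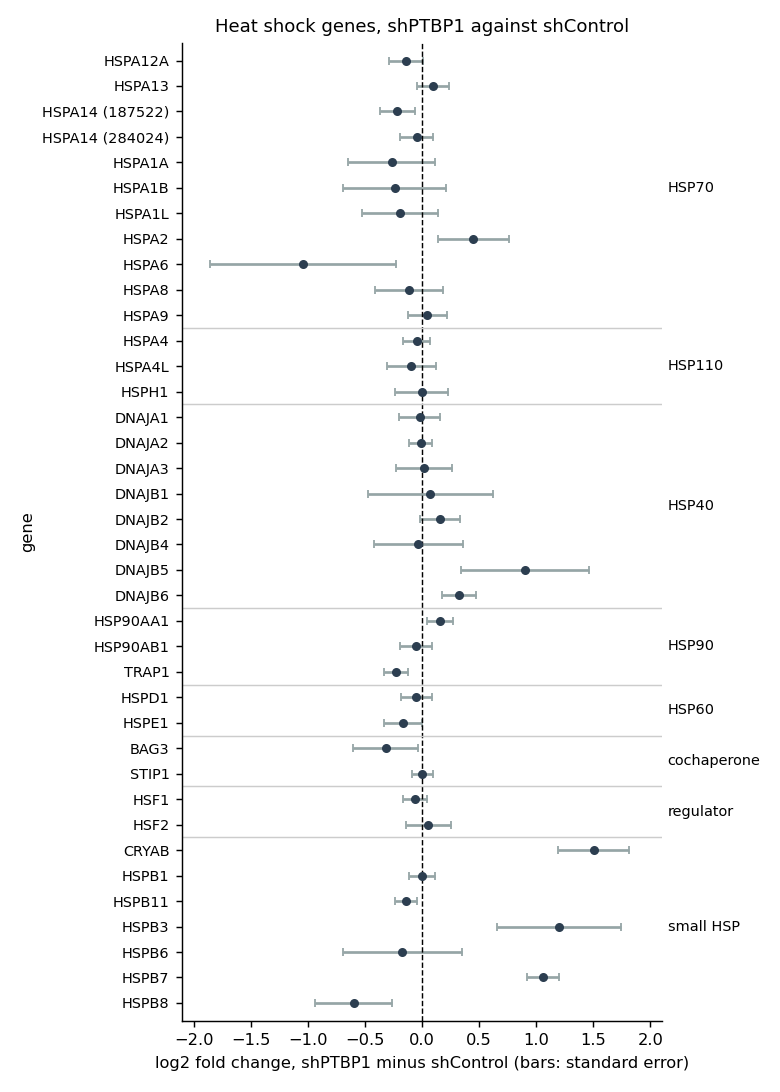
Log2 fold change of shPTBP1 over shControl for the 38 tested rows, grouped by class; points are edgeR estimates and bars 1 standard error. CRYAB (1.50), HSPB3 (1.20) and HSPB7 (1.06) lie highest, HSPB7 with the shortest bar of the 3, and HSPA6 (-1.04) lies lowest with a standard error of 0.81.

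The wider chaperone network was taken from a list of 73 further genes, of which 72 were tested (HSF5 was not). None passed an adjusted p of 0.05 in edgeR, nor in DESeq2. By edgeR 4 of 72 had an unadjusted p under 0.05, near the 5.69% of all genes in either direction. All 4 were lower in shPTBP1, against 2.11% of all genes in that direction. They were the myosin chaperone UNC45A (log2 fold change -0.30, standard error 0.09), the mitochondrial disaggregase CLPB (-0.30, standard error 0.11) and the prefoldin subunits PFDN4 (-0.34, standard error 0.13) and PFDN2 (-0.24, standard error 0.10), which hand unfolded actin and tubulin to the chaperonin. Their adjusted p by edgeR ran from 0.688 to 0.87. PFDN2 had 95.4, 89.1 and 86.6 CPM in the shControl libraries against 76.7, 73.0 and 80.2 CPM in the shPTBP1 libraries, without overlap. The median log2 fold change was -0.07 over the 72 genes, against -0.01 over all genes, and 51 of 72 were below 0, against 52.0%. Both libraries numbered 3 lay below the other 4 in 8 of 72 genes, against 8.65% of all genes, and above in 5 of 72, against 8.38%. One of the 8 was the HSP90 cochaperone CHORDC1. It had 95.9, 103 and 51.0 CPM in the shControl libraries against 85.8, 82.0 and 55.9 CPM in the shPTBP1 libraries. The 3-unit heat shock element was found in CHORDC1 and in SERPINH1, which was not among the 8. Of the members with this element, HSPA6 and HSPA8 were among the 14 rows low in both libraries numbered 3. DNAJA1, DNAJB6, HSP90AA1, HSP90AB1 and HSPD1 were not, though in FPKM HSPD1 was narrowly low in both (327.13 in shPTBP1 3 against 330.07 in shPTBP1 1). Of members with only the 2-unit form, DNAJB1, DNAJB4, HSPA1A, HSPA1B, HSPA1L and HSPA4L were among the 14. HSPA9, HSPB1, HSPB3, HSPB6, HSPB8 and STIP1 held that form and were not. BAG3, DNAJA2, DNAJA3, DNAJB2, HSPA13 and HSPH1 were among the 14 and held neither form.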

How the data were processed

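A single table deposited by the authors held FPKM and counts of 58825 genes for 6 RNA-seq libraries of MHCC97H cells, 3 per group, made from poly(A) RNA with a dUTP strand-marking kit. The submitters' processing notes name HISAT2 2.2.1, StringTie, cutadapt 1.9 and FastQC with build hg38; counting by strand is not stated. The deposited counts were all whole numbers. They were treated as estimated counts, because 32.5% to 34.4% of those from 1 to 40 were multiples of 4. Intervals and standard errors do not measure errors of the authors' assignment of reads to genes.

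After removal of low counts by filterByExpr and TMM scaling, the whole table was fitted in edgeR 4.0.16 under R 4.3.3 and tested by quasi-likelihood F, with Benjamini-Hochberg adjustment over 19393 genes. CPM are TMM-scaled, and levels are compared between genes in FPKM. Alternatives were DESeq2 1.42.0, limma 3.58.1 on log2(FPKM + 1) or log2(FPKM + 0.1), no filter, other scalings, leaving out each library, a replicate block, numbers 1 and 2 only, number 3 as a covariate, and counts divided by 4.

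Of the identifiers, 58552 were in GENCODE 29. Members, lists, tests and alternatives were chosen with earlier results of these data known. Values are given for members at an unadjusted p under 0.05, the 2 highest members of each class, detected small heat shock proteins, near-identical or adjacent pairs, HSF1, HSF2, BAG3, HSPH1, DNAJB1 and members in which 1 library stood apart, with up to 4 genes of each other list by p. HSPA1L, DNAJB6, TRAP1, HSPA9, CHORDC1 and the comparisons between library numbers were added after their values were seen. Over all genes tested, the same-numbered libraries correlated in their deviations from the group means by -0.009, 0.158 and 0.083. Numbers were therefore not used as pairs in the main fit.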

Additional observations from a re-analysis of the deposited data

How the results depend on the processing

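The 6 genes called over the whole table became 165 by DESeq2, 63 in numbers 1 and 2 alone, 3 with number 3 as a covariate, 1 by limma without a filter and 0 with the replicate block, and ran from 2 to 136 as single libraries were left out, the latter without shControl 3. The 0 members called became 2 by DESeq2 (CRYAB and HSPB7), 1 in numbers 1 and 2 alone (HSPB7) and 0 to 3 as single libraries were left out, the 3 being DNAJB5, HSPB7 and HSPB8 without shControl 3, and remained 0 with the replicate block. The 2 members at an unadjusted p under 0.05 became 1 by limma on log2(FPKM + 0.1), 5 by limma without a filter, 4 with the replicate block, 4 with number 3 as a covariate, 15 in numbers 1 and 2 alone and 2 to 11 as single libraries were left out. None of the other chaperone network genes was called under any alternative run. The summed HSPA1 pair ran from -0.5798 to 0.0211 on the log2 scale with single libraries left out.

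Some log2 fold changes, none past the threshold, changed sign as single libraries were left out. DNAJB1 ran from -0.3211 to 0.4624, HSP90AB1 from -0.2008 to 0.0378, HSPA1B from -0.5838 to 0.0629, HSPA8 from -0.4139 to 0.0790, HSPB1 from -0.0903 to 0.0691 and HSPD1 from -0.1828 to 0.0488. HSPB1 also turned to 0.0039 with the replicate block and to 0.0037 with the covariate. The cause of these shifts was not tested. Over all genes tested the numbers did not pair the libraries, by the check given with the methods. The fall in genes called with the block is therefore no measure of a weaker effect. With 3 libraries a group and an unknown number of fragments, small differences in CRYAB, HSPB3, HSPB6 and HSPA2, at the lowest FPKM of the members tested, could not be resolved.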
